A study of Mus musculus with 4 samples.

Results

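The proteins of the cytosolic ribosome were followed in LPS-stimulated mouse B cells that had or lacked IκB-ζ, a nuclear partner of NF-κB encoded by Nfkbiz. Members were the genes whose symbol is Rpl, Rps or Rplp followed by a number and at most the letter a or x, with a deposited score that reached 0.005 in 1 sample or more. Of 30041 genes listed, 76 symbols matched and all 76 reached that minimum, so 76 of the 9727 genes that reached it were members. They comprised 46 proteins of the large subunit (Rpl and Rplp) and 30 of the small subunit (Rps). The rule uses the symbol and that minimum, and it was chosen with earlier results of these data known. Ribosomal genes whose symbols have another form, such as Rpsa, Fau and Gnb2l1, fell outside the rule and are given at the end.

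RNA-seq was performed on splenic B cells of C57BL/6 mice, 2 control and 2 cKO samples. Both groups carried a floxed and a deleted Nfkbiz allele (Nfkbiz fl/Δ), and the cKO mice also carried Mb1 cre/+, which expresses Cre from the Cd79a promoter in B lineage cells, so the controls had a reduced gene dose and no Cre. Cells were cultured with LPS for 72 h (20 mg/ml in the labels, the same figure in μg/ml in the study's methods). No source says that the samples were separate mice, so the p-values measure only the spread between these samples. Nfkbiz itself scored 0.0241 and 0.0226 in the controls and 0.0127 and 0.0116 in cKO samples (log2 fold change -0.94, SE 0.096, limma adjusted p 0.0282). With cKO 1 or cKO 2 left out, when the spread came from the controls alone, the log2 fold change was -1.01 and -0.87 and the adjusted p 0.13 and 0.0885. B cell markers were present throughout, with a summed score of 12 markers of 3.35 and 3.70 in control and 3.14 and 3.16 in cKO samples. The T and NK markers summed to 0.0156 and 0.0179 in control and 0.0232 and 0.0203 in cKO samples. The 14 listed myeloid markers summed to 0.368 and 0.396 in control and 0.491 and 0.476 in cKO samples. Most of that sum came from Ctss (0.175 to 0.245) and Itgam (0.135 to 0.158).

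The cytosolic ribosome is built from ribosomal RNA and a set of proteins, nearly all present in a single copy per particle. The small subunit binds the mRNA and reads the codons, and the large subunit forms the peptide bonds. B cells that have been activated by LPS grow, divide and begin to make antibody, all of which need ribosomes. Messenger RNAs of ribosomal proteins typically begin with a C followed by a stretch of pyrimidines, the TOP sequence, through which mTOR signalling controls their translation. Many retroposed copies of these mRNAs lie in the mouse genome, and short reads can match both gene and copy.

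Sequences at the transcription start were read from a RefSeq table of promoters (GRCm38.p6), in which 56 of the 76 members were found. An unbroken run of at least 8 C or T letters on the gene's own strand, within 20 bases before and 50 bases after the annotated start, was found in 45 of these 56 members (80.4%). The same search found one in 7705 of 27025 genes of the table (28.5%) and in 1972 of the 7278 tested genes in it (27.1%). The median longest run was 10.5 bases among members and 6 among all genes. A run is a match of letters and not a mapped start of the mRNA. Windows of 30 bases are given for the members with the greatest differences between groups, the highest and lowest scores, the longest run, and the S6 kinase target Rps6, with the longest run inside the searched interval in capitals.
Rpl41 (chr10:128549119-128549148, minus strand): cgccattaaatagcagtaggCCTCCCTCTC
Rps2 (chr17:24720083-24720112, plus strand): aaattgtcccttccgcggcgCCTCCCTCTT
Rpl10 (chrX:74270836-74270865, plus strand): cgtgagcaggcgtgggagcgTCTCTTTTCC
Rps26 (chr10:128626479-128626508, minus strand): ccggaTCCTCTTTCgagtcttggctccaag
Rpl27a (chr7:109519186-109519215, plus strand): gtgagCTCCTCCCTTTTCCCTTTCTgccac
Rpl13a (chr7:45128719-45128748, minus strand): caagaCCTCCTCCTTTCCCaggcggctgcc
Rps25 (chr9:44407689-44407718, plus strand): gggctTCCTTTTTTTCCgacatcttagcga
Rps12 (chr10:23787177-23787206, minus strand): gccggCCTTTTCCCCTgccgccgccgactt
Rpl28 (chr7:4792957-4792986, plus strand): tcgtgTCTCTCTTTCCgtctccggccgcca
Rpl7a (chr2:26910788-26910817, plus strand): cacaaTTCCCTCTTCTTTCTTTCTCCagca
Rps6 (chr4:86857344-86857373, minus strand): tcgggCCTCTTTTTCgtgacgcctcccagg
The runs of Rpl41, Rps2 and Rpl10 stop at the last base of the table's sequence. For Rps25 and Rps28 the capitals start at the first base searched, and the pyrimidines go on before it. Members without such a run included the following 3.
Rps28 (chr17:33824558-33824587, minus strand): aggatTCCTgggtaccgcgtgcggtctcgc
Rps3 (chr7:99483666-99483695, minus strand): cattgCTCCCgccctatatacctacttccg
Rpl22 (chr4:152324421-152324450, plus strand): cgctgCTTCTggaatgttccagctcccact
The median log2 fold change (cKO over control) was -0.02 in the 45 members with a run and -0.01 in the 11 without, and the median of the mean scores was 1.27 and 1.70.

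Members were among the most abundant mRNAs of these cells, with 53 of the 100 highest mean scores. No unit is stated for the score. Most of its low values fall near steps that reads divided by exon length and library size would give, with the step fitted to those values. On that assumption, which was not tested, levels are compared between genes as scores per length. The 76 members, 0.253% of the genes listed, took 18.1% and 18.3% of the summed score in the controls, beside 18.2% and 18.8% in the cKO samples. The mean share was 18.2% ± 0.11 (SD, n = 2) in control and 18.5% ± 0.42 in cKO samples. This difference of 0.254 percentage points was below the SD of the cKO samples and gave p = 0.67 in a two-sided exact permutation test, which cannot go below 0.33 with 2 samples against 2. The median member had a score of 1.40, 1.43, 1.34 and 1.42 in control 1, control 2, cKO 1 and cKO 2.

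Single members spanned a wide range of scores although the ribosome holds their products in nearly equal numbers. Rps25, a small subunit protein used in internal initiation on viral mRNAs, had the highest mean score, with 3.08 and 3.33 in control and 2.96 and 3.38 in cKO samples. Rps12 was close to it, at 3.08 and 3.27 in control and 2.98 and 3.29 in cKO samples. Both genes had their 2 high values in sample 2 of either group, and the groups overlapped.

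Next in order was Rps28, at 2.69 and 2.28 in control and 2.61 and 2.54 in cKO samples, with control 2 the lowest of the 4. Rpl13a, a large subunit protein that can leave the ribosome and repress inflammatory mRNAs in myeloid cells, scored 2.00 and 2.34 in control and 2.57 and 2.74 in cKO samples. Rplp0, the base of the stalk that recruits elongation factors, scored 2.52 and 2.23 in control and 2.40 and 2.49 in cKO samples. Of the 76 members, 14 had a mean score of 2 or more, 51 a mean score from 1 to 2, 10 a mean score from 0.5 to 1, and 1 lay lower.

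That single low member was Rpl28, a large subunit protein, with scores of 0.0261 and 0.0263 in control and 0.0277 and 0.0248 in cKO samples. The next lowest member, Rpl36, was 18.8 to 22.3 times as high in the same sample, and the median of the other members 49.4 to 57.9 times as high. The low score of Rpl28 was therefore a feature of all 4 samples, and it did not separate the groups (log2 fold change 0.00, 95% interval -0.23 to 0.23). Rpl28 lies at chr7:4744476-4746164 (plus strand, NCBIM37, the assembly equivalent to mm9) and has a coding sequence of 414 bases in 5 exons. Every 38-base window of it has an identical copy elsewhere in the genome. The same is true of other members that scored far higher, Rps12 among them, and whether such copies had a part in its score was not tested. After Rpl28 the lowest members were Rpl36 (0.520 to 0.563), Rpl22 (0.596 to 0.652), Rpl38 (0.605 to 0.682) and Rpl24 (0.607 to 0.703). Rpl22 is an RNA-binding protein that ribosomes can do without and that early T cells need, and Rpl38 is needed for the translation of Hox mRNAs in the embryo.

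**Figure D1:**
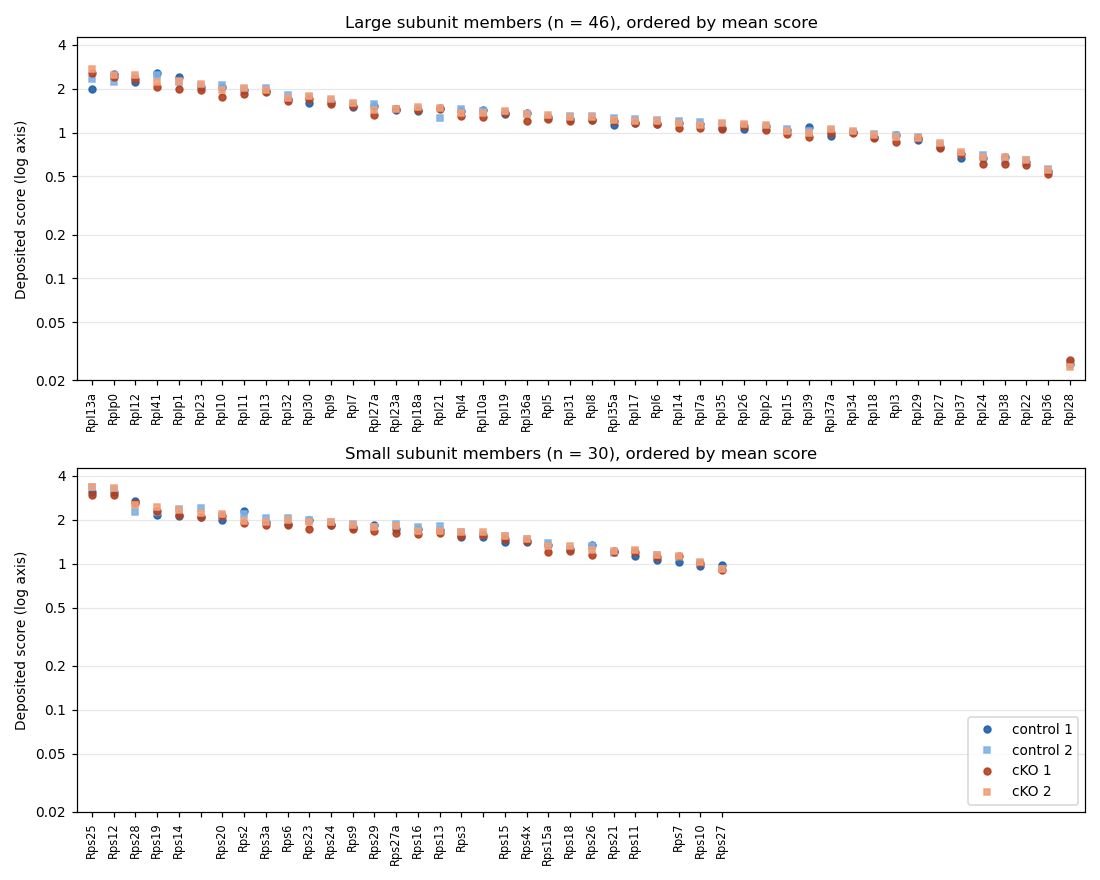
Deposited score (log axis) of each member in the 4 samples, the 46 large subunit members above and the 30 small subunit members below, each ordered by mean score, with some members unlabelled. The 4 points of a member lie close together against the range between members, from 3.38 for Rps25 in cKO 2 to 0.0248 for Rpl28 in cKO 2.

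The order of the members was nearly the same in every sample. Between any 2 samples, Spearman's rho across the 76 members was 0.981 to 0.995, a description across genes that share their libraries. Without Rpl28, the highest score exceeded the lowest by 5.63, 5.92, 5.73 and 6.10 times in control 1, control 2, cKO 1 and cKO 2, and the SD of the log2 score across members was 0.543 to 0.547 in the 4 samples. Neighbours in that order were mostly not separated. Of 75 pairs of neighbours, 70 had overlapping ranges over the 4 samples. The 5 that did not were Rps12 over Rps28, Rpl29 over Rpl27, Rpl27 over Rpl37, Rpl22 over Rpl36, and Rpl36 over Rpl28, and these gaps were picked out after their values were seen.

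Small subunit members had higher scores than large subunit members in each of the 4 samples. The median score was 1.73, 1.80, 1.62 and 1.74 for the small subunit against 1.23, 1.26, 1.20 and 1.28 for the large subunit, in the order control 1, control 2, cKO 1 and cKO 2. Only 1 of 30 small subunit members had a mean score below 1 (Rps27), against 10 of 46 of the large subunit. The SD of the log2 score between members was 0.441 to 0.462 for the small subunit and 0.540 to 0.549 for the large subunit without Rpl28. On the log2 scale the large subunit median lay 0.49 and 0.52 below that of the small subunit in control and 0.43 and 0.44 below in cKO samples.
The gap between subunits was smaller in both cKO samples than in both control samples by 0.07 (log2), the most extreme of the 6 splits of these samples (two-sided exact permutation p = 0.33, the smallest possible). With the mean in place of the median, the samples overlapped and the difference turned to the other side of 0 (-0.00135, exact permutation p = 1). Summed over its members, the large subunit took 9.78% and 9.77% of all scores in control and 9.75% and 10.1% in cKO samples. The small subunit took 8.35% and 8.51% in control and 8.42% and 8.67% in cKO samples. The ratio of the sums, large over small, was 1.17 and 1.15 in control and 1.16 and 1.16 in cKO samples (exact permutation p = 1), a mean difference of 0.00146.

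**Figure D2:**
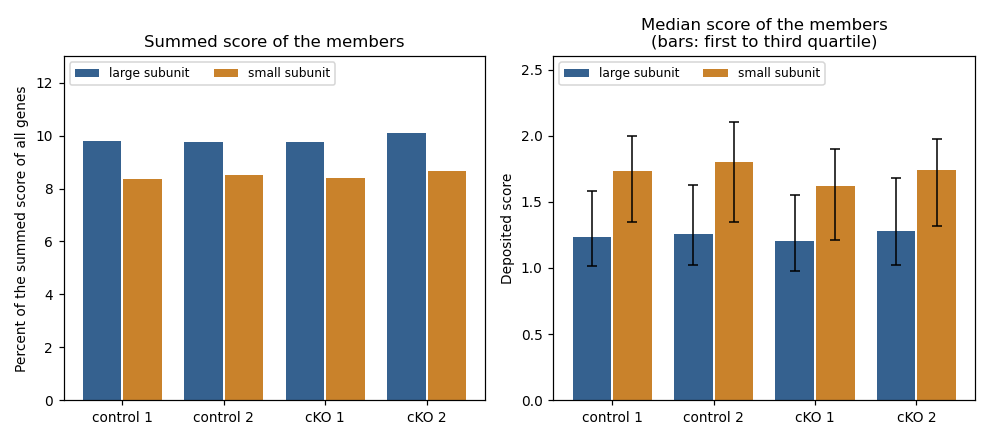
Left, percent of the summed score of all genes taken by large and small subunit members in each sample. Right, median score of the members with bars from the first to the third quartile across members. The large subunit has the larger sum (9.75% to 10.1% against 8.35% to 8.67%) and the lower median (1.20 to 1.28 against 1.62 to 1.80) in all 4 samples.

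Samples of the same group differed from each other in a way that most members shared. In cKO 2, 74 of the 76 members scored higher than in cKO 1 (53.7% of all genes tested did so), with a median difference of 0.08 on the log2 scale. Control 2 exceeded control 1 in 58 of 76 members, against 51.7% of all genes tested, with a median difference of 0.05. Over all genes tested these median differences were 0.01 and 0.01. By subunit, 45 of 46 large subunit and 29 of 30 small subunit members were higher in cKO 2, and 35 of 46 and 23 of 30 were higher in control 2. The median difference between the cKO samples was 0.08 in either subunit, and that between the control samples was 0.04 in the large and 0.08 in the small subunit. The median deviation of the members from their own mean was -0.01, 0.04, -0.05 and 0.03 (log2) in control 1, control 2, cKO 1 and cKO 2, so each group held a sample below and a sample above 0. The 2 members that were not higher in cKO 2 were Rps28 and Rpl28.

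**Figure D3:**
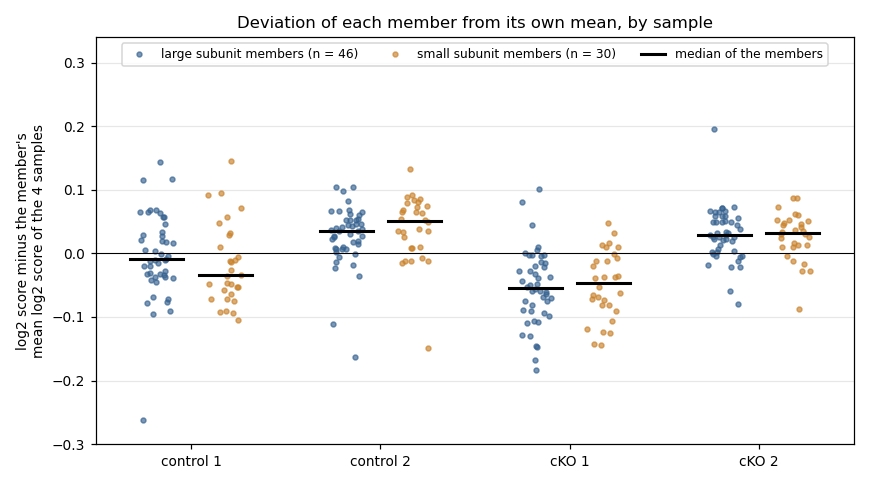
Deviation of each member's log2 score from its own mean over the 4 samples, with points for members and black lines for the medians of each subunit. Both medians lie below 0 in control 1 and cKO 1 and above 0 in control 2 and cKO 2, and the lowest single point is Rpl13a in control 1.

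Rps28, Rpl21, Rpl13a and Rps25 were among the 5 members with the largest differences between samples of a group. Rps28 was 0.24 lower in control 2 than in control 1 on the log2 scale, and Rpl21 was lower by 0.23 (1.48 and 1.26 in control against 1.46 and 1.46 in cKO samples). Rpl13a went the other way, higher in control 2 by 0.23. For Rps25 the larger difference was between the cKO samples, 0.19. Across all members the median of the larger of the 2 within-group differences was 0.10, and across all genes tested it was 0.18. Most of the genes tested had lower scores than the members.

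Between control and cKO samples, no ribosomal protein gene passed the test. With limma on the log2 scale over 9727 genes and Benjamini-Hochberg adjustment, 201 genes (2.07%) had an adjusted p under 0.05, of which 122 were lower and 79 higher in cKO samples, and 0 of 76 members were among them. At an unadjusted p under 0.05 there were 3 of 76 members (3.95%), against 2169 genes (22.3%) of all tested. With the filter at a score above 0.05 there were 3 of 75 members, against 556 of 1933 genes. The count of members past the adjusted threshold was also 0 under each of the 14 other settings run, in which the lowest adjusted p of any member was 0.0646. No other test than limma was run on single genes.

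The differences were also small in size. The median log2 fold change was -0.02 for the 76 members and -0.01 for all genes tested, and that of the members turned positive with quantile normalization (0.04) and with a correction for GC content and length (0.03). The middle part of the members, from the first to the third quartile, lay between -0.07 and 0.02, against -0.16 and 0.14 for all genes tested. Of the members, 59 of 76 differed by less than 0.1 on the log2 scale, against 3338 of the 9727 genes tested. In 63 of 76 the difference between groups was no larger than the larger within-group difference, against 5454 of the 9727. That count sets a difference of group means beside a difference of single samples, which are unlike measures. The 95% interval had a median half-width of 0.19, and for all 76 members it stayed within a 1.5-fold change in either direction, from -0.43 to 0.54 at the outermost. The same held for 7023 of the 9727 genes tested. An interval of this width does not exclude smaller changes. The genes tested were not matched to the members by level. Of the 9727 genes, 1933 scored above 0.05 in 1 sample or more, as did 75 of the 76 members. The median SE was 0.076 for members and 0.109 for all genes tested. Whether the members differ in these shares from genes of like level was not tested.

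The subunits were also taken apart. The median log2 fold change was -0.02 for large and -0.01 for small subunit members, with 27 of 46 and 17 of 30 below 0. Together these were 44 of 76, and 28 of 76 with quantile normalization and 26 of 76 with the GC and length correction. Of all genes tested, 5037 of 9727 were below 0 in the main fit. In 17 of 76 members (10 large, 7 small subunit), or 22.4%, the higher cKO score was under the lower control score, against 30.1% of all genes tested. The reverse held in 6 of 76 (2 large, 4 small subunit), or 7.89%, against 28.1% of all genes tested. In the remaining 53 members the groups overlapped.

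**Figure D4:**
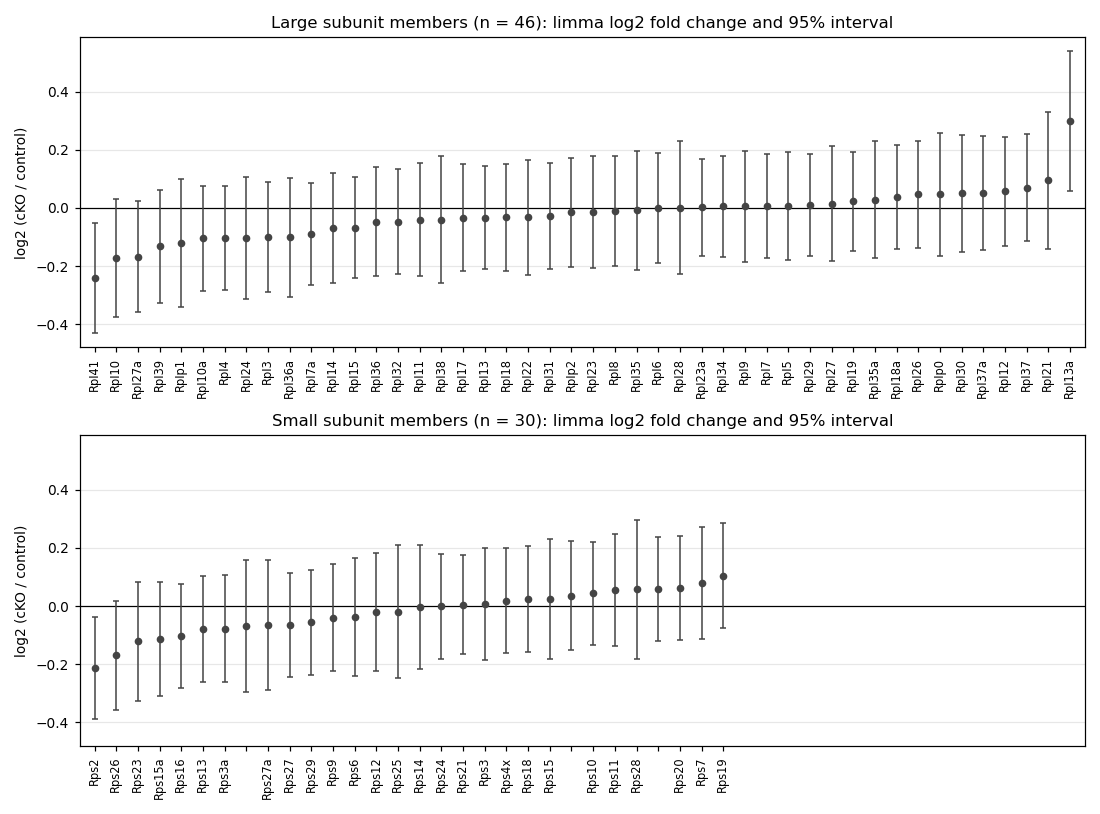
Log2 fold change of cKO over control from limma with its 95% interval, large subunit members above and small subunit members below, each ordered by the value, with some members unlabelled. Intervals of 73 of the 76 members include 0, and those of Rpl41, Rps2 and Rpl13a do not before adjustment for the number of genes.

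At the low end stood Rpl41, the smallest protein of the ribosome. It scored 2.57 and 2.49 in control and 2.05 and 2.23 in cKO samples, with both cKO values under both control values. Its log2 fold change was -0.24 (SE 0.077, unadjusted p 0.0208, limma adjusted p 0.161), a ratio of 0.846, and it ranged from -0.30 to -0.18 over the other settings with adjusted p from 0.0667 to 0.611. Rps2, which lies near the entry of the mRNA into the small subunit, scored 2.31 and 2.19 in control and 1.91 and 1.96 in cKO samples. Its log2 fold change was -0.21 (SE 0.071, unadjusted p 0.025, limma adjusted p 0.174), with a range of -0.25 to -0.12.

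The next 6 from the low end had log2 fold changes of -0.17 to -0.12 with adjusted p of 0.259 to 0.45. Rpl10, which joins the large subunit late in its assembly, scored 2.06 and 2.11 in control and 1.75 and 1.96 in cKO samples. Rps26, at the channel where the mRNA leaves the small subunit, scored 1.35 and 1.33 in control and 1.14 and 1.24 in cKO samples. Rpl27a scored 1.52 and 1.57 in control and 1.32 and 1.44 in cKO samples. In these 3 the groups did not overlap, and cKO 1 was the lowest sample. Rpl39, a small protein of the exit tunnel for nascent peptides, and Rps23, a protein of the decoding centre, also did not overlap (log2 fold changes -0.13 and -0.12), whereas the stalk protein Rplp1 did (-0.12). Without cKO 1 these values shrank to -0.09 for Rpl10, -0.11 for Rps26 and Rpl27a, -0.09 for Rpl39 and -0.04 for Rps23 and Rplp1. Over all other settings the 6 ranged from -0.25 (Rpl10 without cKO 2) to -0.03 (Rps23 with the GC and length correction), with adjusted p from 0.216 to 0.926.

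At the high end Rpl13a stood alone. Its scores were given above, with both cKO values over both control values and control 1 the lowest sample. The log2 fold change was 0.30 (SE 0.098, 95% interval 0.06 to 0.54, unadjusted p 0.0234, limma adjusted p 0.17). Over the other settings it ranged from 0.19 to 0.41 with adjusted p from 0.0646 to 0.501. The difference between the control samples (0.23) was of similar size.

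The other 7 at the high end, among them Rps19, Rpl21, Rps7, Rpl37, Rps20 and Rpl12, had log2 fold changes of 0.06 to 0.10. Rps19, the gene most often mutated in Diamond-Blackfan anaemia, scored 2.15 and 2.27 in control and 2.32 and 2.43 in cKO samples, without overlap (SE 0.074, limma adjusted p 0.436). For Rpl21 the sign depended on control 2, since without it the log2 fold change was -0.0205. The log2 fold changes of Rpl21, Rpl37, Rps20 and Rpl12 were smaller than their own SE.

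Members with known roles in signalling had small differences between groups. Rps6, the substrate of S6 kinases under mTOR, scored 1.88 and 2.06 in control and 1.85 and 1.98 in cKO samples (log2 fold change -0.04, SE 0.083). Rpl5 and Rpl11, which together bind the inhibitor of p53, Mdm2, when ribosome assembly is disturbed, had log2 fold changes of 0.01 (SE 0.076) and -0.04 (SE 0.079). Rps3, which also binds the NF-κB subunit p65, scored 1.53 and 1.65 in control and 1.55 and 1.64 in cKO samples (0.01, SE 0.078). In all 4 genes the groups overlapped. Of the stalk proteins, Rplp0 had a log2 fold change of 0.05 (SE 0.086) and Rplp2 of -0.02 (SE 0.076), beside the -0.12 of Rplp1. Rps27a, made as a fusion with ubiquitin, had a log2 fold change of -0.07 (SE 0.091), Rpl22 of -0.03 (SE 0.080) and Rpl38 of -0.04 (SE 0.089).

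The annotation placed 75 members on 19 chromosomes, and Rpl41 could not be matched to it. Chromosome 7 held 14 of them. The 4 members on chromosome X were Rpl10, Rpl36a, Rpl39 and Rps4x. The first 3 were lower in both cKO samples than in both control samples (log2 fold changes -0.17, -0.10 and -0.13). So were 22.4% of all members and 30.1% of all genes tested. Rpl10 and Rpl39 were also among the 8 members with the lowest log2 fold changes. Rpl36a scored 1.37 and 1.34 in control and 1.19 and 1.33 in cKO samples, so that cKO 2 came close to the controls. Rpl39 scored 1.10 and 1.02 in control and 0.937 and 0.995 in cKO samples. The limma adjusted p of these 3 was 0.284 to 0.499. Rps4x scored 1.40 and 1.49 in control and 1.44 and 1.49 in cKO samples (0.02, SE 0.073). The 6 on chromosome 17, Rpl10a, Rpl36, Rps10, Rps18, Rps2 and Rps28, had log2 fold changes from -0.21 (Rps2) to 0.06 (Rps28). Rpl10a scored 1.43 and 1.42 in control and 1.28 and 1.37 in cKO samples, below the controls in both, and Rps10 scored 0.966 and 1.01 in control and 1.01 and 1.03 in cKO samples. Rps18 scored 1.25 in each control and 1.23 and 1.32 in cKO samples, which overlapped the controls. In 4 of those 6 control 2 scored below control 1, and the difference between control samples was from -0.24 (Rps28) to 0.06 (Rps10).

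Most of the coding sequence of these genes cannot be told from other places of the genome by reads of 38 bases. Over the 75 members with an annotated transcript, 30188 of 35958 windows of 38 bases (84.0%) had an identical copy elsewhere in NCBIM37, on either strand, and the median member had 95.2%. All windows had a copy in 30 members (21 large, 9 small subunit), and the largest number of copies of a window was 62, in Rpl7a. Fewer than 50% had one in 5 members. These included Rpl8 (11.4%), Rps3 (15.8%), Rpl4 (30.3%) and Rpl22 (46.6%). Reads from spliced mRNA and from an intronless copy match alike in such windows, and how the authors counted them is not given in the sources used here, so the source of the other members' scores is uncertain.

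The members whose windows were mostly their own had values within the range of the rest. Rpl8 scored 1.22 and 1.30 in control and 1.21 and 1.28 in cKO samples (-0.01, SE 0.077). Rpl4 scored 1.41 and 1.44 in control and 1.29 and 1.36 in cKO samples (-0.10, SE 0.072, limma adjusted p 0.438). The 5 members under 50% had a median mean score of 1.25 and log2 fold changes of -0.10 to 0.04, and the 70 others with a transcript a median of 1.43 and log2 fold changes of -0.21 to 0.30. Of the members at the ends of the comparison, Rpl13a had copies of 59.3% of its windows, Rplp1 of 72.7%, Rps26 of 78.5%, Rps2 of 88.9% and Rps23 of 92.8%, and Rpl10, Rpl27a and Rpl39 had copies of all. Rpl8 and Rpl4 were named after their values were seen.

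**Figure D5:**
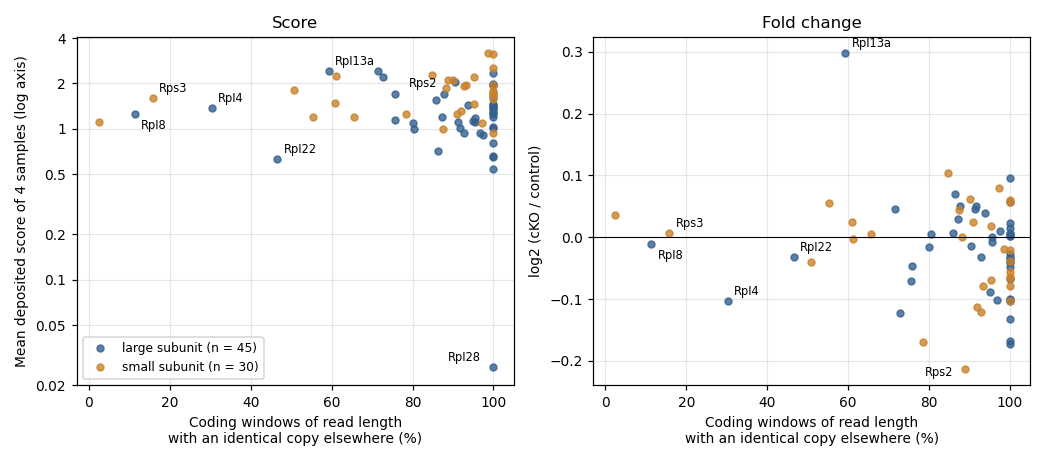
Mean score over 4 samples (left, log axis) and log2 fold change of cKO over control (right) against the percent of 38-base coding windows with an identical copy elsewhere, for 75 members. The 5 members under 50% score between 0.630 and 1.59 and change by -0.10 to 0.04, within the range of the others.

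Ribosomal genes outside the symbol rule were also not called. Of 12 listed, 9 were tested, 0 passed in either direction, and their median log2 fold change was 0.02 (0.09 with quantile normalization, -0.08 without control 1). Rpsa, a small subunit protein once described as a laminin receptor, scored 1.92 and 1.89 in control and 1.61 and 1.81 in cKO samples. Fau, which encodes a ribosomal protein fused to a ubiquitin-like protein, scored 1.40 to 1.51 over the 4 samples. Gnb2l1, also called Rack1, a scaffold on the small subunit, scored 1.39 to 1.55.

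Among the paralogs of members, Rpl22l1 scored higher than Rpl22 in each sample, at 0.676 and 0.817 in control and 0.780 and 0.763 in cKO samples. Rpl36al scored 0.710 and 0.707 in control and 0.623 and 0.691 in cKO samples. Rps27l, which p53 induces, had the lowest unadjusted p of these genes. It scored 0.119 and 0.0926 in control and 0.0742 and 0.0805 in cKO samples. Its log2 fold change was -0.44 (SE 0.14, unadjusted p 0.0177, limma adjusted p 0.151). Without control 2 its log2 fold change was -0.62 and its adjusted p 0.0189, and without control 1 they were -0.26 and 0.314. The adjusted p was 0.156 to 0.577 over the 7 settings other than the fit without control 2, and no other gene of this list passed without control 2. Rpl7l1 scored 0.0943 to 0.123 and Rps4y2 0.00526 to 0.00723. Rpl39l, Rpl10l and Rpl3l, whose expression is best known from testis or muscle, scored below 0.005 in every sample.

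The wider translation machinery was taken from lists. Of 14 elongation and release factors tested, 0 passed in either direction, 11 had a log2 fold change below 0, and the median was -0.11 (0.02 without cKO 1). Of 41 initiation factors, 0 passed, 37 had a value below 0 (30 with quantile normalization), and the median was -0.14 (-0.08 with quantile normalization). Of 25 genes of mTOR, S6 kinase and TOP mRNA regulation, 0 passed, 12 had a value below 0, and the median was 0.01 (-0.01 with the GC and length correction). Values below 0 were found in 5037 of the 9727 genes tested, but the lists were not matched to these genes by level. The median log2 fold change was -0.01 over all genes tested and -0.07 over the 1933 with a score above 0.05. Of those 1933 genes, 376 were lower and 180 higher in cKO samples at an unadjusted limma p under 0.05. At an unadjusted p under 0.05 there were 3 of 14, 8 of 41 and 3 of 25 genes in these lists, against 22.3% of all genes tested. Eef1a1, Eef2 and Tpt1, whose mRNAs carry a TOP sequence as those of ribosomal proteins do, were singled out after their values were seen. Eef1a1, which brings aminoacyl-tRNA to the ribosome, scored 8.73 and 9.24 in control and 8.91 and 9.52 in cKO samples, with overlapping groups. Its log2 fold change was 0.04 (SE 0.073), that of Eef2 was -0.01 (SE 0.074), and that of Tpt1 was 0.19 (SE 0.092, limma adjusted p 0.291).

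Several cell type markers passed the test. Of 12 B cell markers, 3 passed as lower in cKO samples: Vpreb3 (log2 fold change -0.98), Cd79a (-0.78), whose promoter drives Cre, and Fcer2a (-0.78). Of 6 plasma cell markers tested, 2 passed as lower: Prdm1 (-2.82), the regulator of plasma cell fate, and Derl3 (-1.88). The other 4, named after their values were seen, did not pass, 1 below 0 (Igj, -0.86) and 3 above it, Sdc1 (0.77), Irf4 (0.15) and Xbp1 (0.11). Of 7 myeloid markers tested, Fcer1g passed as higher (1.66). All 7 had a log2 fold change above 0, although 1 was below 0 with the GC and length correction. In 6 of them both cKO scores lay above both control scores, against 28.1% of all genes tested. The summed score of the 14 listed was 0.368 and 0.396 in control and 0.491 and 0.476 in cKO samples, with S100a9 at 0 throughout. Ctss (0.175 to 0.245) and Itgam (0.135 to 0.158, log2 fold change 0.00) had the largest scores in that sum. Without either cKO sample none of these calls was left, and without control 1 or with quantile normalization the plasma cell calls were lost. Erythroid markers summed to 0.0138 in control 1 and to 0.00249 to 0.00286 in the other samples. The part of these cells in the members' scores was not tested, and in bulk samples fewer cells of a type and less RNA per cell cannot be told apart.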

How the data were processed

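Splenic B cell RNA-seq (poly(A) RNA, 38-base reads) of 2 control and 2 cKO samples was used. Per the study's methods and the submitters' processing notes, the authors aligned reads to mm9 with TopHat 2.0 (CASAVA 1.8, Bowtie, SAMtools and bedtools are also named), kept reads of high base quality and removed rRNA and tRNA reads. They deposited a score per gene, whose unit and counting are not given in the sources used here. Low scores times exon length fell on multiples of a step in 75.4% to 81.9% of cases (within 0.2 of a whole number). The step was picked from a grid to fit these same values, so that share is not a test of the unit. If a step is 1 read, it gives about 17500000 to 19900000 reads per sample. Reads of members were inferred from coding length, which is shorter than exon length, so they are lower bounds. They were 180 or more for Rpl28 and 2512 or more for every other member with a coding length.

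All 9727 genes that reached a score of 0.005 in 1 sample or more were tested with limma 3.58.1 in R 4.3.3 (variance trend) on log2(score + 0.0001), a scale that understates the change of low genes, with Benjamini-Hochberg adjustment and a threshold of 0.05. On simulated data of 9727 genes, limma called 93.4% of 2-fold and 98.8% of 4-fold changes of cKO against control, and 7.55% of calls were false. These data were independent normal values with the fit's own variances. Shifts shared by genes within a sample and changes smaller than 2-fold were not simulated. Values with 1 number per sample were compared by exact permutation. Tables were made with pandas 2.3.3, numpy 2.4.6 and scipy 1.17.1 under Python 3.11.15. Windows of 38 bases came from the GENCODE vM1 coding sequence of each member (75 of 76 matched) and were searched on both strands of NCBIM37.

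The members and gene lists were chosen with earlier results of these data known. Genes named are the members with the 8 lowest and 8 highest log2 fold changes, the 5 highest and 5 lowest mean scores, the 5 largest differences within a group, those on chromosomes X and 17 and 12 named for their roles, all ribosomal genes outside the rule, list genes past the threshold (at most 3 a direction) and Nfkbiz.
The alternatives were other pseudocounts, filters, scalings, a replicate block, no variance trend and leaving out each sample. Same-numbered samples are not said to be paired, and their deviations from the group means correlated at -0.145 across genes tested (Spearman -0.291) and 0.0856 across members. Some genes that this rule covers are not reported here.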

Additional observations from a re-analysis of the deposited data

How the results depend on the processing

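No member passed the threshold under any setting, with or without the replicate block (0 members; the samples share only a number), while the calls over all genes moved from 122 lower and 79 higher to 180 and 177 with the replicate block, 181 and 179 with the block and the GC and length correction, 230 and 212 with the crossed pairing, which was added after seeing the data, 22 and 11 without the variance trend, 88 and 35 of 1933 genes with a score above 0.05 (Rpl28 then drops out), and 0 and 0 without the filter (1538 and 1665 at an unadjusted p under 0.05). Without control 1 there were 161 and 136 calls, without control 2 391 and 439, and without cKO 1 or cKO 2 0 and 0 (947 and 1749 genes at an unadjusted p under 0.05). A fit that leaves out a sample takes its spread from the complete group alone and assumes that the lone sample varies like it.

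The members' median log2 fold change of -0.0151 became 0.0358 with quantile normalization and 0.0292 with the GC and length correction, and lay between -0.0625 and 0.0306 when a sample was left out. For the large subunit the values were 0.0382, 0.0315 and -0.0625 to 0.0278, and for the small subunit 0.029 with the correction and -0.062 to 0.0365. The difference between groups in the large minus small subunit level (0.0673) reversed to -0.00135 with the mean in place of the median. Of 17 genes followed under all settings, Rpl21 reversed without control 2 (-0.0205 to 0.211 with a sample left out), and Nfkbiz lost its call in 4 settings and had no value with the filter at 0.05. The cause of these shifts was not tested. Rpl28, at 180 to 229 reads as inferred from its coding length, is the member that depth limits most.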

Other observations

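Other properties of the members were set beside their scores as descriptions across 75 genes, which share their libraries and are not replicates. Spearman's rho with the mean score was 0.16 for coding length (156 to 1260 bases), -0.07 for GC content, -0.04 for the percent of windows with a copy elsewhere and 0.09 for the largest number of copies. With the log2 fold change it was -0.06, 0.05, -0.22 and -0.04 in the same order. Members with every window copied elsewhere had a median log2 fold change of -0.04 (30 members, -0.17 to 0.10).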
